A study of Mus musculus with 8 samples.

Results

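The genes described here are those of cholesterol and fatty acid synthesis and of their SREBP regulators, taken from a list of 34 mouse genes. A gene was represented by the probe set that the platform annotation assigns to its symbol alone and that had the highest mean signal over the 8 arrays. Of the 34 genes, 33 had such a probe set, and Acat2 was matched by none. They fell into 6 genes of the mevalonate steps, 11 of the steps from squalene to cholesterol, 6 SREBP regulators and sterol carriers, and 10 genes of fatty acid synthesis, elongation and desaturation, out of 18193 genes with such a probe set in all. All 33 were above the filter on dim probe sets (a mean log2 signal of 5.37), with mean signals between 8.34 and 14.0.

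The cells were of C57BL/6 background and came from a secondary reprogramming system, in which doxycycline switches on Oct4, Sox2, Klf4 and Myc (OSKM) that the cells already carry. All 4 groups received doxycycline, written as 2 mg per ml in the labels in stem cell medium that held 15% fetal bovine serum and leukemia inhibitory factor at 100 units per ml. The groups were cells given the solvent DMSO or CSA (written as 10 mM), each collected at reprogramming day 3 or day 6, with 2 biological repeats per group and 8 Affymetrix 3' arrays in all. CSA is the usual short name of cyclosporin A, a drug that blocks the phosphatase calcineurin by way of cyclophilins and so keeps NFAT factors out of the nucleus. The study set control cells beside cells under this inhibition at each day. No source used here gives the starting cell type or the number of lines behind the repeats.

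Cells make cholesterol from acetyl-CoA through mevalonate, isoprenoid units and squalene, and fatty acids from acetyl-CoA and malonyl-CoA. Both pathways are controlled by SREBP transcription factors, which SCAP carries from the endoplasmic reticulum to the Golgi for cleavage when sterols are low, while INSIG proteins hold the complex back when sterols are high. SREBP2 is known mainly for sterol genes and SREBP1 for fatty acid genes, and dividing cells draw on both pathways to build membranes.

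The arrays of a group correlated at 0.968 to 0.974 over the 27022 tested probe sets, those of the other treatment at the same day at 0.957 to 0.963 and those of the other day at 0.918 to 0.943. Of the 8 fibroblast markers and 6 epithelial markers all were above the filter. Of the 7 pluripotency genes Nanog, Zfp42 and Tdgf1 were below it, while Pou5f1 (8.58 to 10.31), Esrrb, Dppa5a and Utf1 were above it. The arrays thus read cells with fibroblast and epithelial RNA and little RNA of Nanog, Zfp42 and Tdgf1. Differences are log2 values with the moderated standard error of limma after ±, from 2 arrays a group. Adjusted p-values are those of limma with Benjamini-Hochberg adjustment over all 27022 probe sets, with a threshold of 0.05, and "rose" and "fell" are used only for genes past it. In bulk RNA such as this, fewer cells of a type and less RNA per cell cannot be told apart.

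To show the regions in front of genes that moved and of one that did not, 5 promoters are given below, each as the 250 bases before the RefSeq start (assembly GRCm38.p6), 5′ to 3′ on the gene's strand. Msmo1 and Idi1 had some of the larger falls from day 3 to day 6, Sc5d fell over the days and was higher with CSA at both, Srebf2 rose over the days in DMSO, and Hmgcs1 passed the threshold in none of the comparisons as fitted, though it did over the days in DMSO under quantile normalization. Capitals mark matches on either strand to 3 letter patterns: TCACNNCAC, a loose form of the sterol regulatory element, CACGTG, an E-box that SREBP proteins can also bind, and CCAAT, the box bound by NF-Y. NF-Y is a known partner of SREBP at sterol genes. In Msmo1 the last base of 1 CCAAT box is also the first base of the sterol-type match.
Msmo1, chr8:64733579-64733828, strand minus: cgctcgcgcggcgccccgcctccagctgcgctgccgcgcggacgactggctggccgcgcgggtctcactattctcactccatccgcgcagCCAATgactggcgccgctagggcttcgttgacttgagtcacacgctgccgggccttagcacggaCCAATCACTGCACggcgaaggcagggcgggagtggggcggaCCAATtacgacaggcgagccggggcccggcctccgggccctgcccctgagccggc
Idi1, chr13:8885356-8885605, strand plus: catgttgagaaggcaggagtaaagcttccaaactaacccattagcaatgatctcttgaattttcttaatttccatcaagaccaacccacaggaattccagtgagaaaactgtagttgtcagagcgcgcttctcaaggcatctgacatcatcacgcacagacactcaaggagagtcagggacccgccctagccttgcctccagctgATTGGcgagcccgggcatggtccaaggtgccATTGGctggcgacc
Sc5d, chr9:42264301-42264550, strand minus: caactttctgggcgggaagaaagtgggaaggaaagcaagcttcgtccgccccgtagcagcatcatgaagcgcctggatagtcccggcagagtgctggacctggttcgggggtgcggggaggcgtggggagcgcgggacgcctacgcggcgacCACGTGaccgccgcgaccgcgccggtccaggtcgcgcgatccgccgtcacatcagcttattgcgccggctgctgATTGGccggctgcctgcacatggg
Srebf2, chr15:82147019-82147268, strand plus: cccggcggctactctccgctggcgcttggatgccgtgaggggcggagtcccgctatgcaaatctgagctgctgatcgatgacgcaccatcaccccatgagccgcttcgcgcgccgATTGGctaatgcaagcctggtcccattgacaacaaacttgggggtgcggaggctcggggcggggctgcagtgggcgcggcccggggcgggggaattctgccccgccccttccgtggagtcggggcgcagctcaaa
Hmgcs1, chr13:119690101-119690350, strand plus: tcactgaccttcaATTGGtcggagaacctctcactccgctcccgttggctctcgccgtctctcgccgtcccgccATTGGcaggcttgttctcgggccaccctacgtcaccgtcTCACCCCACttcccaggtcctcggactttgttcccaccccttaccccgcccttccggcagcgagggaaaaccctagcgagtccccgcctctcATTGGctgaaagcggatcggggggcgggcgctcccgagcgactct

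RefSeq windows were found for 27 of the 34 listed genes, 36 windows in all because some genes have several starts. A CCAAT box lay in 22 of the 36 windows (61.1%), against 33.8% of the 32851 windows of all genes. The sterol-type letters lay in 4 windows, 11.1% against 3.11% of all, in front of Hmgcs1, Msmo1, Hsd17b7 and the start of Dhcr7 at which the window begins at base 143823149 of chromosome 7. The E-box lay in 5 windows, 13.9% against 6.02%. Among the windows of genes that fell from day 3 to day 6 in DMSO, 7 of 9 held a CCAAT box, beside 6 of 10 for genes that rose and 9 of 16 for genes that did not pass. The sterol-type letters were in 1 of 9, 1 of 10 and 2 of 16 of these windows. Stard4, Fdps, Sqle and Fdft1 also fell and Scd2 also rose in DMSO, but they had no window. Among the genes that rose, Dhcr7 and Srebf1 each had several windows. The window of Acat2, which has no probe set, is in none of these groups. A letter match in a window is a description and was not tested as a binding site, and windows of one gene share sequence.

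From day 3 to day 6 in DMSO 8 of the 17 sterol enzymes fell and 2 rose, while Srebf1 and Srebf2 both rose. Under CSA 7 fell and 1 rose, and of the SREBP genes Srebf1 rose. With the probe sets of each gene averaged, those below the filter included, 4 sterol enzymes fell and 3 rose in DMSO, and 2 fell and 1 rose under CSA. In DMSO cells 19 of the 33 genes passed the threshold between the days, 7 higher and 12 lower. Of the 12529 tested genes 45.7% were called, 26.1% higher and 19.6% lower. Of the 7889 genes at least as bright as the dimmest member 58.1% were called, 30.4% higher and 27.7% lower, so the members' 57.6% lay close to that background. Under CSA 14 passed between the days, 3 higher and 11 lower, or 42.4%. The background there was 36.1% of all genes tested (20.2% higher, 15.8% lower) and 46% of the equally bright ones (22.9% higher, 23.1% lower). The median over the members was -0.18 in DMSO and -0.13 under CSA, where the median of all genes was 0.08 in each. Quantile normalization moved the median of all genes to -0.03 in DMSO and -0.02 under CSA, and the split of all genes called in DMSO from 3272 higher and 2460 lower to 2672 and 2756. The members' own split was then 6 higher and 12 lower in DMSO and 3 and 9 under CSA. Differences between days are given below as fitted, and also relative to the median of all genes where a gene is described at length.

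CSA against DMSO changed 8 of the 33 genes at day 3, 6 higher and 2 lower, which is 24.2%. The background was 12.7% of all genes tested (7.14% higher, 5.52% lower) and 17.9% of those equally bright (10.2% higher, 7.69% lower). At day 6 it changed 5, all of them higher, or 15.2% beside 12.5% of all genes (6.41% higher, 6.11% lower) and 17.1% of bright ones (8.76% higher, 8.34% lower), a share near the background. Under quantile normalization the day 6 split was 7 higher and 1 lower. The medians over the members were 0.09 and 0.05, with medians of 0.00 and -0.01 over all genes. The effect of CSA averaged over both days passed for 11 genes, 9 higher and 2 lower, 33.3% beside 18.5% of all genes (9.68% higher, 8.87% lower) and 25.3% of bright ones (13.4% higher, 11.9% lower). The test of whether the CSA effect differed between the days passed for 1 gene, Dhcr7, or 3.03%. It passed for 5.79% of all genes (2.36% higher, 3.43% lower) and 8.38% of bright ones (3.37% higher, 5.01% lower). These CSA counts rested on single arrays and on limma's intensity trend. The day 3 count was 1 without CSA replicate 1 of day 3, 2 without its replicate 2 and 5 without DMSO replicate 2 of that day, and the day 6 count was 2 and 1 without DMSO replicate 1 or 2 of day 6 and 3 without CSA replicate 2. The interaction count was 0 without CSA replicate 2 of day 3 or DMSO replicate 2 of day 6, and 3 and 2 without DMSO replicate 1 or 2 of day 3. The averaged effect passed for 7 genes without CSA replicate 2 of day 3, and the count over time under CSA was 8 without CSA replicate 1 of day 3. With no trend in limma's prior variance 0 of the members passed at either day, although 9 had an unadjusted p under 0.05 at each. In that setting 2.19% of all genes tested passed at day 3 and 3.38% at day 6.

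**Figure D1:**
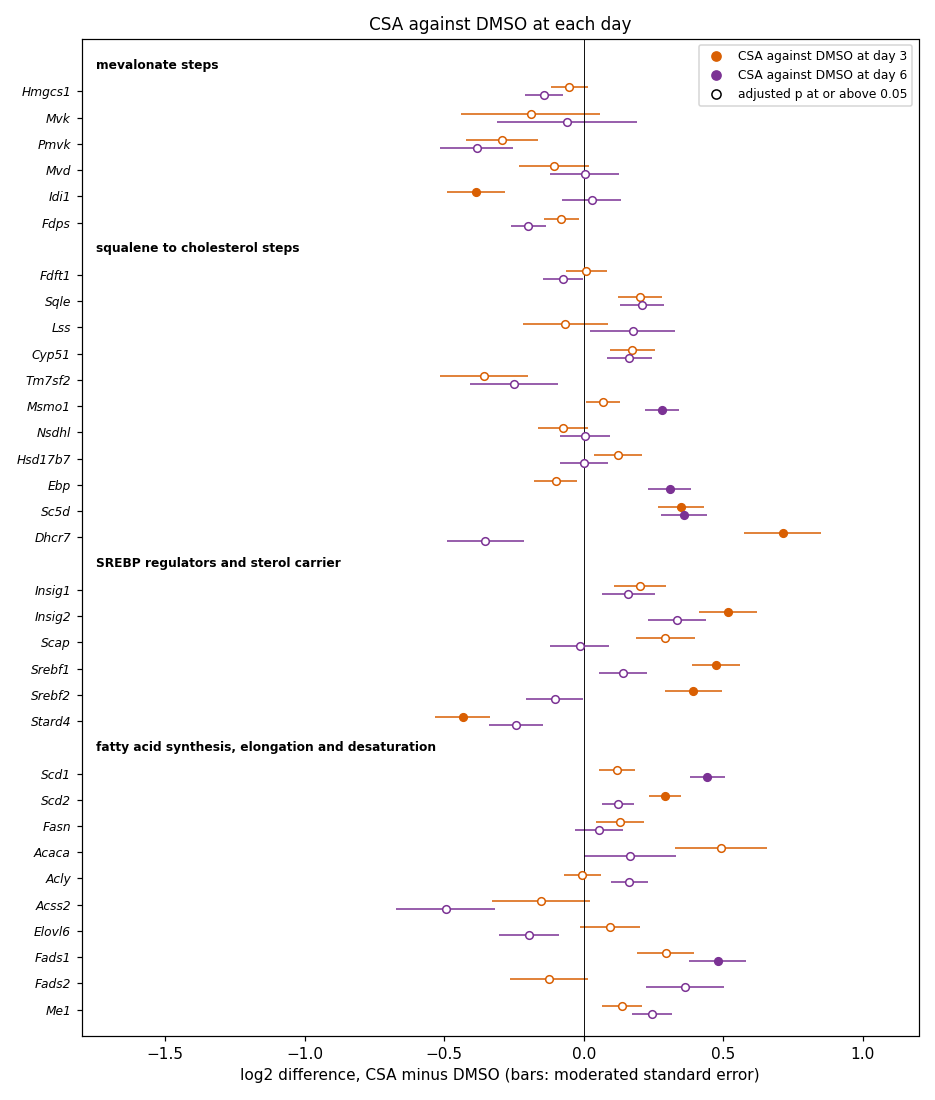
Log2 difference of CSA minus DMSO for the 33 genes at day 3 (orange) and day 6 (purple), with bars of 1 moderated standard error, and filled points for adjusted p under 0.05. Filled points lie on both sides of 0 at day 3, with Dhcr7 at 0.71 and Stard4 at -0.43, and to the right of 0 at day 6, and the 2 points of Dhcr7 lie on opposite sides of 0.

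Among the enzymes of the mevalonate steps, which turn acetyl-CoA into isoprenoid units, Idi1 and Fdps fell from day 3 to day 6 and the others did not pass. Idi1, which makes dimethylallyl diphosphate from its isomer, had log2 signals of 12.82 and 12.52 in DMSO at day 3, 12.29 and 12.27 with CSA at day 3, 11.90 and 11.73 in DMSO at day 6 and 11.94 and 11.75 with CSA at day 6. DMSO at day 3 was the highest group and did not overlap with any other. It fell by 0.85 ± 0.10 over the days in DMSO, 1.81-fold (adjusted p = 6.72e-05), or by 0.93 relative to the median of all genes, and by 0.44 ± 0.10 under CSA (adjusted p = 0.00849). CSA lowered it at day 3, by 0.39 ± 0.10 (adjusted p = 0.0393), and at day 6 the difference was 0.03 ± 0.10. That these 2 CSA effects differ was not shown (interaction 0.41 ± 0.15, adjusted p = 0.153). The day 3 call ended without DMSO replicate 1 (adjusted p = 0.221), CSA replicate 1 (0.154) or CSA replicate 2 (0.174) of day 3 and under quantile normalization (0.0672), and the fall under CSA ended without CSA replicate 1 of day 3 (0.0533) or CSA replicate 2 of day 6 (0.0717). A second Idi1 probe set was called lower over the days under both treatments as well, at -0.78 and -0.59.

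Fdps, the farnesyl diphosphate synthase that supplies both sterols and protein prenylation, read 12.53 and 12.55 in DMSO and 12.46 and 12.46 with CSA at day 3. At day 6 it read 12.21 and 12.12 in DMSO and 11.97 and 11.97 with CSA. Its replicates differed by less than 0.1, and each group lay below the one before it in that order. It fell by 0.37 ± 0.06 over the days in DMSO (adjusted p = 0.000696) and by 0.49 ± 0.06 under CSA (adjusted p = 0.000196). Quantile normalization brought the Fdps difference in DMSO to -0.17 (adjusted p = 0.0460) and made CSA at day 6 pass, at -0.24 (0.0274). With the probe sets of Fdps averaged, the difference under CSA was 0.55 (adjusted p = 0.623). Fdps has 0 other tested probe sets, so this average draws on probe sets below the filter. Hmgcs1, which makes HMG-CoA at the start of the pathway, stayed between 13.15 and 13.40 on all 8 arrays, and its differences ran from -0.14 to 0.02 with none past the threshold. Under quantile normalization Hmgcs1 passed over the days in DMSO, at 0.26 (adjusted p = 0.00859). Mvk, the mevalonate kinase, ranged from 7.90 to 8.72 with 7.90 and 8.72 both in CSA at day 3, so its arrays overlap and its standard error of 0.25 was the largest of the members. The decarboxylase Mvd ranged from 9.25 to 9.65. Pmvk, the phosphomevalonate kinase, was lower with CSA on average over the days, by -0.34 ± 0.09 (adjusted p = 0.0310), with values of 10.26 and 10.08 in DMSO and 9.84 and 9.92 with CSA at day 3, and 10.09 and 10.19 in DMSO and 9.57 and 9.95 with CSA at day 6. The Pmvk call ended without any 1 of 6 arrays: DMSO replicate 1 (adjusted p = 0.0909), CSA replicate 1 (0.104) or CSA replicate 2 (0.0730) of day 3, or DMSO replicate 1 (0.0614), DMSO replicate 2 (0.107) or CSA replicate 1 (0.0845) of day 6.

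In the steps from squalene to cholesterol 6 of 11 genes fell and 2 rose from day 3 to day 6 in DMSO, and 5 fell and 1 rose under CSA, while the CSA calls were 2 higher at day 3 and 3 higher at day 6. Over the days 72.7% of the 11 were called in DMSO and 54.5% under CSA, beside 45.7% and 36.1% of all genes and 58.1% and 46% of the equally bright ones. With CSA it was 18.2% at day 3 and 27.3% at day 6, beside 17.9% and 17.1% of the equally bright genes. With averaged probe sets 3 fell and 2 rose in DMSO, and 1 fell and 1 rose under CSA. The median over the 11 genes was -0.22 over the days in DMSO and -0.30 under CSA. Msmo1, the oxidase that starts removal of the methyl groups at carbon 4 of the sterol ring, read 12.80 and 12.79 in DMSO and 12.83 and 12.90 with CSA at day 3, and 12.07 and 12.11 in DMSO and 12.39 and 12.35 with CSA at day 6. All day 6 arrays lay below all day 3 arrays, and at day 6 both CSA arrays lay above both DMSO arrays. Msmo1 fell by 0.70 ± 0.06 in DMSO, 1.63-fold (adjusted p = 6.35e-06), or by 0.78 relative to all genes, and by 0.49 ± 0.06 under CSA (adjusted p = 0.000157, and -0.32 under quantile normalization). With CSA it was 0.28 ± 0.06 higher at day 6 (adjusted p = 0.0155) and 0.07 ± 0.06 at day 3, and the interaction did not pass (adjusted p = 0.217). The day 6 call ended without DMSO replicate 1 (adjusted p = 0.106), DMSO replicate 2 (0.0664) or CSA replicate 1 (0.0702) of day 6. Its promoter above is the one of the 5 with the sterol-type letters and a CCAAT box side by side.

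Sc5d, the desaturase of the sterol B ring, was the one sterol enzyme called with CSA at both days. It read 11.53 and 11.35 in DMSO and 11.79 and 11.78 with CSA at day 3, then 10.98 and 11.07 in DMSO and 11.35 and 11.41 with CSA at day 6. CSA arrays lay above DMSO arrays at each day, and within a treatment day 6 lay below day 3. CSA raised it by 0.35 ± 0.08 at day 3 (adjusted p = 0.0208) and by 0.36 ± 0.08 at day 6 (adjusted p = 0.0192), and over both days by 0.35 ± 0.06 (adjusted p = 0.00207), a call that held without any 1 array. At day 3 the call ended without DMSO replicate 2 (0.122), CSA replicate 1 (0.119) or CSA replicate 2 (0.113) of day 3, and the day 6 call without DMSO replicate 1 (0.131), DMSO replicate 2 (0.0609) or CSA replicate 2 (0.100) of day 6. Over the days Sc5d fell by 0.42 ± 0.08 in DMSO (adjusted p = 0.00182) and by 0.41 ± 0.08 under CSA (adjusted p = 0.00326). Of its 2 other tested probe sets both were higher with CSA at each day, and 1 of them was called at day 6, at 0.64. Over the days only 1 of these 2 was lower in DMSO and 1 under CSA, and none was called.

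Ebp, the isomerase that moves the double bond in the B ring, read 11.81 and 11.96 in DMSO and 11.83 and 11.73 with CSA at day 3, and 11.33 and 11.40 in DMSO and 11.69 and 11.66 with CSA at day 6. The lowest arrays were those of DMSO at day 6. It fell by 0.51 ± 0.08 over the days in DMSO (adjusted p = 0.000282), and under CSA the difference was -0.10 ± 0.08 (adjusted p = 0.341). CSA raised it at day 6 by 0.31 ± 0.08 (adjusted p = 0.0283), which did not hold when a day 6 array was left out (0.162 for DMSO replicate 1, 0.0907 for DMSO replicate 2, 0.104 for CSA replicate 1 and 0.0832 for CSA replicate 2). The interaction for Ebp was 0.41 ± 0.11 and missed the threshold (adjusted p = 0.0620). Cyp51, the lanosterol demethylase, fell over the days by 0.36 ± 0.08 in DMSO (adjusted p = 0.00394) and by 0.37 ± 0.08 under CSA (adjusted p = 0.00505, or 0.0503 without CSA replicate 2 of day 3), although 1 of its 2 other probe sets was at 0.20 and 0.13 in the same comparisons.

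Dhcr7, which reduces 7-dehydrocholesterol to cholesterol in the last step, was the one member whose CSA effect differed between the days. It read 8.71 and 8.79 in DMSO and 9.33 and 9.59 with CSA at day 3, and 9.44 and 9.47 in DMSO and 8.97 and 9.23 with CSA at day 6. CSA lay above DMSO at day 3 and below it at day 6, without overlap at either day. CSA raised it by 0.71 ± 0.14 at day 3, 1.64-fold (adjusted p = 0.00799), whereas at day 6 the difference was -0.35 ± 0.14 (adjusted p = 0.141), and the interaction was -1.07 ± 0.19 (adjusted p = 0.0130). In DMSO it rose over the days by 0.71 ± 0.14 (adjusted p = 0.00169), while most of the called enzymes fell. The day 3 call ended without CSA replicate 2 of that day (adjusted p = 0.0904), and the interaction ended without CSA replicate 2 of day 3 (0.0666), without DMSO replicate 2 of day 6 (0.0564) and without the trend (0.123). With no trend 0 of all 12529 genes passed for the interaction. Under quantile normalization Dhcr7 also passed over the days under CSA, at -0.49 (adjusted p = 0.0220). Dhcr7 has 1 probe set with its symbol alone, so no second probe set bears on this pattern.

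Among the other late enzymes, Tm7sf2, a sterol C14 reductase, rose over the days under both treatments, from 9.28 and 8.96 to 9.80 and 9.45 in DMSO and from 8.65 and 8.87 to 9.33 and 9.41 under CSA. These rises were 0.50 ± 0.16 (adjusted p = 0.0242) and 0.61 ± 0.16 (adjusted p = 0.0130). The first Tm7sf2 rise ended without DMSO replicate 2 of day 3 (0.167) or DMSO replicate 1 of day 6 (0.206) and under quantile normalization (0.139), and the second without CSA replicate 1 of day 3 (0.102) or CSA replicate 2 of day 6 (0.0674) and under quantile normalization (0.0552). Sqle, the squalene epoxidase, fell by 0.22 ± 0.08 in DMSO (adjusted p = 0.0465) and was higher with CSA over both days by 0.21 ± 0.06 (adjusted p = 0.0297). Its values were 11.67 and 11.69 in DMSO and 11.89 and 11.87 with CSA at day 3, and 11.45 and 11.48 in DMSO and 11.57 and 11.78 with CSA at day 6. The Sqle fall ended under quantile normalization (0.187) and on leaving out a day 3 array (DMSO 0.0952 and 0.134, CSA 0.0700 and 0.0701, for replicates 1 and 2) or a DMSO array of day 6 (0.163 and 0.121). Its CSA call ended on leaving out any array but CSA replicate 1 of day 6. The adjusted p was then 0.0651 and 0.0519 for DMSO replicates 1 and 2 of day 3 and 0.0981 and 0.0839 for those of CSA, and at day 6 it was 0.0927 and 0.0752 for DMSO replicates 1 and 2 and 0.0900 for CSA replicate 2.

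Fdft1, which joins 2 farnesyl units into squalene, fell by 0.22 ± 0.07 in DMSO (adjusted p = 0.0290) and by 0.31 ± 0.07 under CSA (adjusted p = 0.00823). A second bright probe set of Fdft1 was at 0.02 and -0.09, and quantile normalization ended both calls (0.993 and 0.180). The first also ended without DMSO replicate 1 of day 3 (0.187) or DMSO replicate 1 (0.0968) or 2 (0.112) of day 6, and the second without CSA replicate 1 of day 3 (0.0741) or CSA replicate 2 of day 6 (0.0607). Hsd17b7, the 3-ketosteroid reductase, fell under CSA by 0.30 ± 0.09 (adjusted p = 0.0205), with 1 of 3 other probe sets called in the same direction, and this ended on leaving out any CSA array (0.120 and 0.0657 at day 3, 0.0505 and 0.0868 at day 6, for replicates 1 and 2). Msmo1 was higher with CSA over both days by 0.17 ± 0.04 (adjusted p = 0.0207), which ended without CSA replicate 2 of day 3 (0.0931), DMSO replicate 1 of day 6 (0.0796) or CSA replicate 1 of day 6 (0.0534), and a second, dim Msmo1 probe set was at -0.33 ± 0.32. Lss, the lanosterol synthase, and Nsdhl, a dehydrogenase of the demethylation complex, passed in no comparison as fitted, with ranges of 8.66 to 9.27 and 10.43 to 10.78. Under quantile normalization both passed over the days in DMSO, Lss at -0.53 (adjusted p = 0.0192) and Nsdhl at -0.25 (adjusted p = 0.0489).

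**Figure D2:**
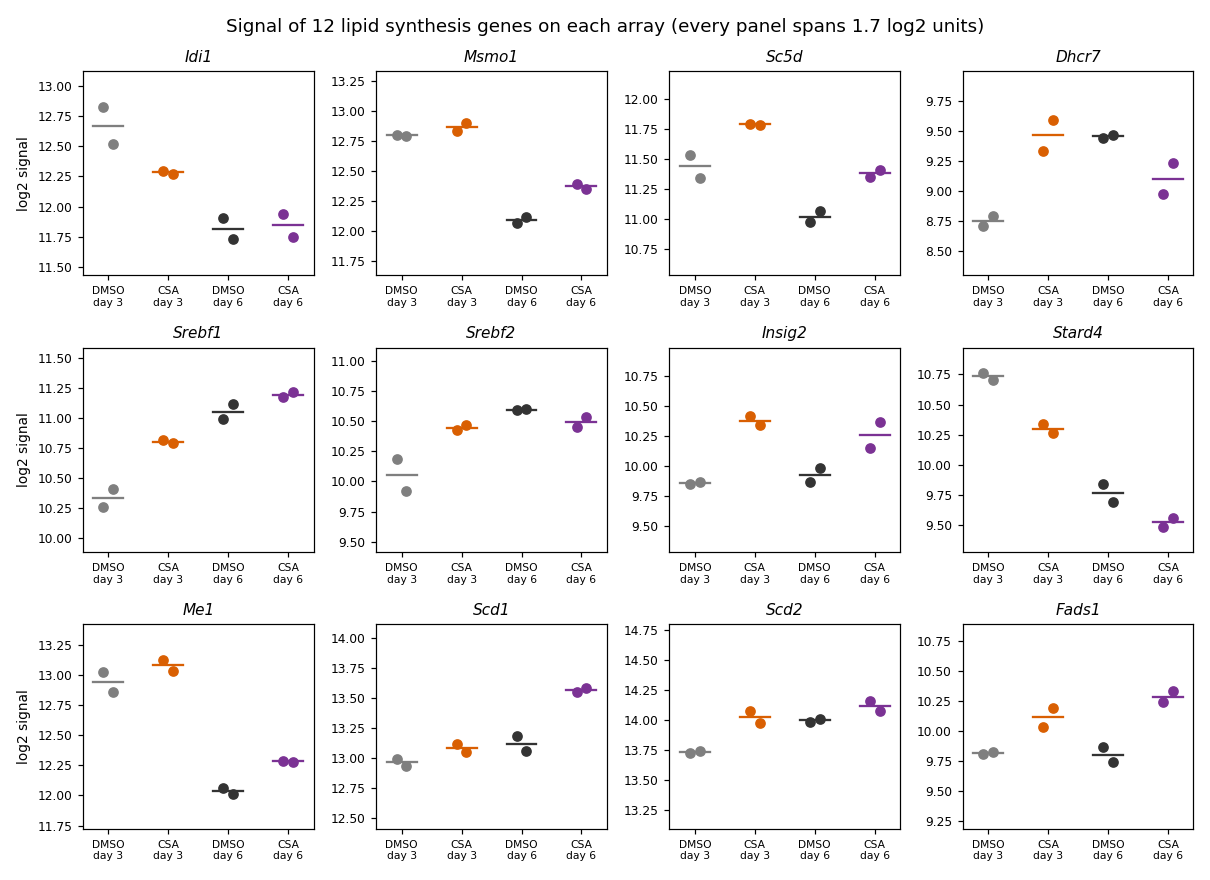
Log2 signal (vertical axis) of 12 genes on each of the 8 arrays, 2 points per group with a line at their mean, for DMSO and CSA at days 3 and 6, each panel spanning 1.7 log2 units. Idi1, Msmo1, Sc5d, Stard4 and Me1 lie lower at day 6, Srebf1 lies higher, and Dhcr7 is high in CSA at day 3 and DMSO at day 6.

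Of the SREBP genes both rose over the days in DMSO and Srebf1 alone passed under CSA. Srebf1, which encodes SREBP1, read 10.26 and 10.41 in DMSO and 10.82 and 10.80 with CSA at day 3, and 10.99 and 11.12 in DMSO and 11.17 and 11.21 with CSA at day 6. DMSO at day 3 was the lowest group, and no 2 groups overlapped. It rose over the days by 0.72 ± 0.09 in DMSO, 1.65-fold (adjusted p = 5.75e-05), or 0.64 relative to all genes, and by 0.39 ± 0.09 under CSA (adjusted p = 0.00577). CSA raised it at day 3 by 0.47 ± 0.09 (adjusted p = 0.00599, or 0.0519 without CSA replicate 1 of day 3), and the day 6 difference was 0.14 ± 0.09 (adjusted p = 0.368, interaction adjusted p = 0.165). The average over both days, 0.31 ± 0.06, passed (adjusted p = 0.00645). Its 1 probe set does not tell the transcripts of SREBP1a and SREBP1c apart here.

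Srebf2, which encodes SREBP2, read 10.19 and 9.92 in DMSO at day 3 and lay between 10.43 and 10.60 on the other 6 arrays. It was lowest in DMSO at day 3, and the other groups lay close together. It rose over the days in DMSO by 0.54 ± 0.10 (adjusted p = 0.00131) and was at 0.05 ± 0.10 under CSA. CSA raised it at day 3 by 0.39 ± 0.10 (adjusted p = 0.0324), and the interaction of -0.50 ± 0.14 missed the threshold (adjusted p = 0.0821). The day 3 call ended without DMSO replicate 2 (0.177), CSA replicate 1 (0.127) or CSA replicate 2 (0.166) of day 3, without DMSO replicate 1 (0.0538) or 2 (0.0539) of day 6, and under quantile normalization (0.0656). A second Srebf2 probe set was at 0.40 over the days in DMSO and 0.35 with CSA at day 3, neither past the threshold.

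Insig2, which retains the SCAP-SREBP complex in the endoplasmic reticulum, was higher with CSA, and Insig1, the sterol-induced form, did not pass. Insig2 read 9.85 and 9.87 in DMSO and 10.42 and 10.34 with CSA at day 3, and 9.87 and 9.99 in DMSO and 10.15 and 10.37 with CSA at day 6. CSA arrays were above DMSO arrays at both days, and between the days the differences were 0.06 in DMSO and -0.12 under CSA. Insig2 rose with CSA by 0.52 ± 0.10 at day 3 (adjusted p = 0.00995) and by 0.43 ± 0.07 over both days (adjusted p = 0.00289), the latter also with no trend (0.0460) and with both other probe sets called, at 0.60 and 0.51. At day 3 the Insig2 call ended without CSA replicate 1 (0.0846) or CSA replicate 2 (0.0531) of day 3, and at day 6 the difference was 0.33 ± 0.10 (adjusted p = 0.0704, or 0.0424 under quantile normalization). Insig1 ranged from 10.84 to 11.26, with CSA differences of 0.20 ± 0.09 and 0.16 ± 0.09. Scap, the escort protein, read 10.95 and 10.85 in DMSO and 11.18 and 11.20 with CSA at day 3, and 10.94 and 10.85 in DMSO and 10.71 and 11.05 with CSA at day 6. It fell under CSA over the days by 0.31 ± 0.11 (adjusted p = 0.0435), a call that ended without CSA replicate 1 (0.140) or 2 (0.155) of day 3, DMSO replicate 1 (0.0589) or 2 (0.0589) of day 6 or CSA replicate 1 of day 6 (0.320), and under quantile normalization (0.0808).

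Stard4, a cytosolic carrier of cholesterol and an SREBP2 target, had the largest fall of the members over the days in DMSO, by its brightest probe set. It read 10.76 and 10.71 in DMSO and 10.34 and 10.26 with CSA at day 3, and 9.84 and 9.69 in DMSO and 9.49 and 9.56 with CSA at day 6. The 4 groups did not overlap, with DMSO at day 3 highest and CSA at day 6 lowest. Stard4 fell over the days by 0.97 ± 0.10 in DMSO, 1.96-fold (adjusted p = 1.62e-05), or by 1.05 relative to all genes, and by 0.78 ± 0.10 under CSA (adjusted p = 0.000153). CSA lowered it by 0.43 ± 0.10 at day 3 (adjusted p = 0.0162) and by 0.34 ± 0.07 over both days (adjusted p = 0.00702). Leaving out an array of day 3 ended the call at that day (0.0728 for DMSO replicate 1, 0.0507 for DMSO replicate 2, 0.0704 for CSA replicate 1 and 0.122 for CSA replicate 2). The other 2 Stard4 probe sets passed in none of these comparisons, at -0.03 and -0.19 over the days in DMSO and 0.01 and -0.10 with CSA at day 3.

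Of the 10 fatty acid genes 3 rose and 3 fell from day 3 to day 6 in DMSO and 1 rose and 2 fell under CSA, with medians of -0.01 and 0.13, where the 17 sterol enzymes had 2 rises and 8 falls in DMSO, 1 and 7 under CSA, and medians of -0.22 and -0.21. In DMSO 60% of the fatty acid genes and 58.8% of the sterol enzymes were called, near the 58.1% of equally bright genes. Under CSA these shares were 30% and 47.1%, beside 46%. With CSA 1 fatty acid gene rose at day 3 and 2 at day 6, beside 2 rises and 1 fall, and 3 rises, among the sterol enzymes. These are 10% and 20% of the fatty acid genes and 17.6% of the sterol enzymes at each day, beside 17.9% and 17.1% of equally bright genes. These counts set both sets side by side, and no test of the difference between the sets was made. They depend on the choice of probe set. With the probe sets of each gene averaged, 1 fatty acid gene rose and 2 fell in DMSO, with a median of -0.17. The sterol enzymes then had 3 rises, 4 falls and a median of -0.09, so the order of the medians turned. These averages also take in probe sets too dim to be tested on their own. Under CSA each set then had 1 rise and 2 falls, with medians of 0.04 for the fatty acid genes and -0.12 for the sterol enzymes. Me1, the malic enzyme that supplies NADPH for lipid synthesis, read 13.03 and 12.86 in DMSO and 13.13 and 13.04 with CSA at day 3, and 12.06 and 12.01 in DMSO and 12.29 and 12.28 with CSA at day 6. Day 6 arrays lay well below day 3 arrays under both treatments. Me1 fell by 0.90 ± 0.07 in DMSO, 1.87-fold (adjusted p = 3.25e-06), or by 0.98 relative to all genes, and by 0.80 ± 0.07 under CSA (adjusted p = 1.68e-05), and a second probe set was called lower in both. With CSA it was higher over both days by 0.19 ± 0.05 (adjusted p = 0.0281), and at day 6 it passed under quantile normalization (0.0380). The call over both days ended on leaving out any array but DMSO replicate 1 of day 3. The adjusted p was then 0.0786 for DMSO replicate 2 and 0.118 and 0.0540 for CSA replicates 1 and 2 of day 3, and at day 6 it was 0.0609 and 0.0977 for DMSO and 0.0622 and 0.0576 for CSA replicates 1 and 2.

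Acly, which cuts citrate to give cytosolic acetyl-CoA, fell in DMSO by 0.36 ± 0.07 (adjusted p = 0.00139, and -0.18 with 0.0469 under quantile normalization), from 12.44 and 12.46 to 12.12 and 12.07. Acss2, which makes acetyl-CoA from acetate, rose in DMSO by 0.66 ± 0.18 (adjusted p = 0.0109), from 8.33 and 8.61 to 9.17 and 9.09. These 2 sources of acetyl-CoA moved in opposite directions in DMSO by their brightest probe sets, and under CSA neither passed. Each has 2 other tested probe sets, of which 1 had the same sign in DMSO. That one was called for Acly and not for Acss2. The Acss2 call ended without DMSO replicate 1 of day 3 (adjusted p = 0.0782) or DMSO replicate 1 of day 6 (0.0641) and under quantile normalization (0.0785). Acaca, the acetyl-CoA carboxylase that makes malonyl-CoA, rose in DMSO by 0.56 ± 0.16 (adjusted p = 0.0173), from 9.29 and 9.04 to 9.95 and 9.50, and this ended without DMSO replicate 2 of day 3 (0.112) or DMSO replicate 1 of day 6 (0.175) and under quantile normalization (0.0895). Fasn, the fatty acid synthase, fell by 0.24 ± 0.09 in DMSO (adjusted p = 0.0423) and by 0.32 ± 0.09 under CSA (adjusted p = 0.0163), from 11.81 and 11.59 to 11.51 and 11.40 and from 11.88 and 11.78 to 11.55 and 11.47. The first Fasn call ended without DMSO replicate 1 of day 3 (0.283), CSA replicate 1 (0.0578) or 2 (0.0575) of day 3 or DMSO replicate 1 (0.0648) or 2 (0.222) of day 6. The second ended without CSA replicate 1 of day 3 (0.122) or CSA replicate 2 of day 6 (0.0864), and quantile normalization ended both (0.139 and 0.0687).

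Besides Me1, the fatty acid genes that CSA changed were 3 desaturases, Scd1, Scd2 and Fads1. Scd1, a stearoyl-CoA desaturase that makes oleate, read 13.00 and 12.94 in DMSO and 13.12 and 13.05 with CSA at day 3, and 13.19 and 13.06 in DMSO and 13.55 and 13.58 with CSA at day 6. The CSA arrays of day 6 stood above all others. CSA raised Scd1 by 0.44 ± 0.06 at day 6, 1.36-fold (adjusted p = 0.00140), the one CSA call at day 6 that held without any 1 array (largest adjusted p = 0.0220), and it rose over the days under CSA by 0.48 ± 0.06 (adjusted p = 0.000235). The day 3 difference was 0.12 ± 0.06 and the interaction 0.32 ± 0.09 (adjusted p = 0.0720). A dimmer second Scd1 probe set was at -0.04 for CSA at day 6. Scd2, the related desaturase, read 13.73 and 13.74 in DMSO and 14.07 and 13.97 with CSA at day 3, and 13.98 and 14.01 in DMSO and 14.16 and 14.08 with CSA at day 6. It rose with CSA by 0.29 ± 0.06 at day 3 (adjusted p = 0.00946, or 0.103 without CSA replicate 1 of day 3), by 0.21 ± 0.04 over both days (adjusted p = 0.00636), and over the days in DMSO by 0.26 ± 0.06 (adjusted p = 0.00366). Under quantile normalization Scd2 was at 0.51 over the days in DMSO and passed under CSA too, at 0.28 (adjusted p = 0.00237), and Scd1 passed in DMSO, at 0.38 (adjusted p = 0.000325). Both other Scd2 probe sets were called higher with CSA over both days, at 0.33 and 0.46.

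Fads1, the delta-5 desaturase of polyunsaturated fatty acids, read 9.81 and 9.83 in DMSO and 10.03 and 10.19 with CSA at day 3, and 9.87 and 9.74 in DMSO and 10.24 and 10.33 with CSA at day 6. It was higher with CSA at both days without overlap, and the differences between days, -0.02 in DMSO and 0.17 under CSA, did not pass. Fads1 rose with CSA by 0.48 ± 0.10 at day 6 (adjusted p = 0.0131, or 0.110 without DMSO replicate 2 and 0.0828 without CSA replicate 2 of day 6) and by 0.39 ± 0.07 over both days (adjusted p = 0.00457), the latter without any 1 array and with no trend (0.0488). Fads2, the delta-6 desaturase, was at -0.12 ± 0.14 and 0.36 ± 0.14 with CSA, and Elovl6, which elongates palmitate, at 0.09 ± 0.11 and -0.20 ± 0.11, neither past the threshold in any comparison as fitted. Fads2 passed over the days in DMSO under quantile normalization, at -0.44 (adjusted p = 0.0293).

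**Figure D3:**
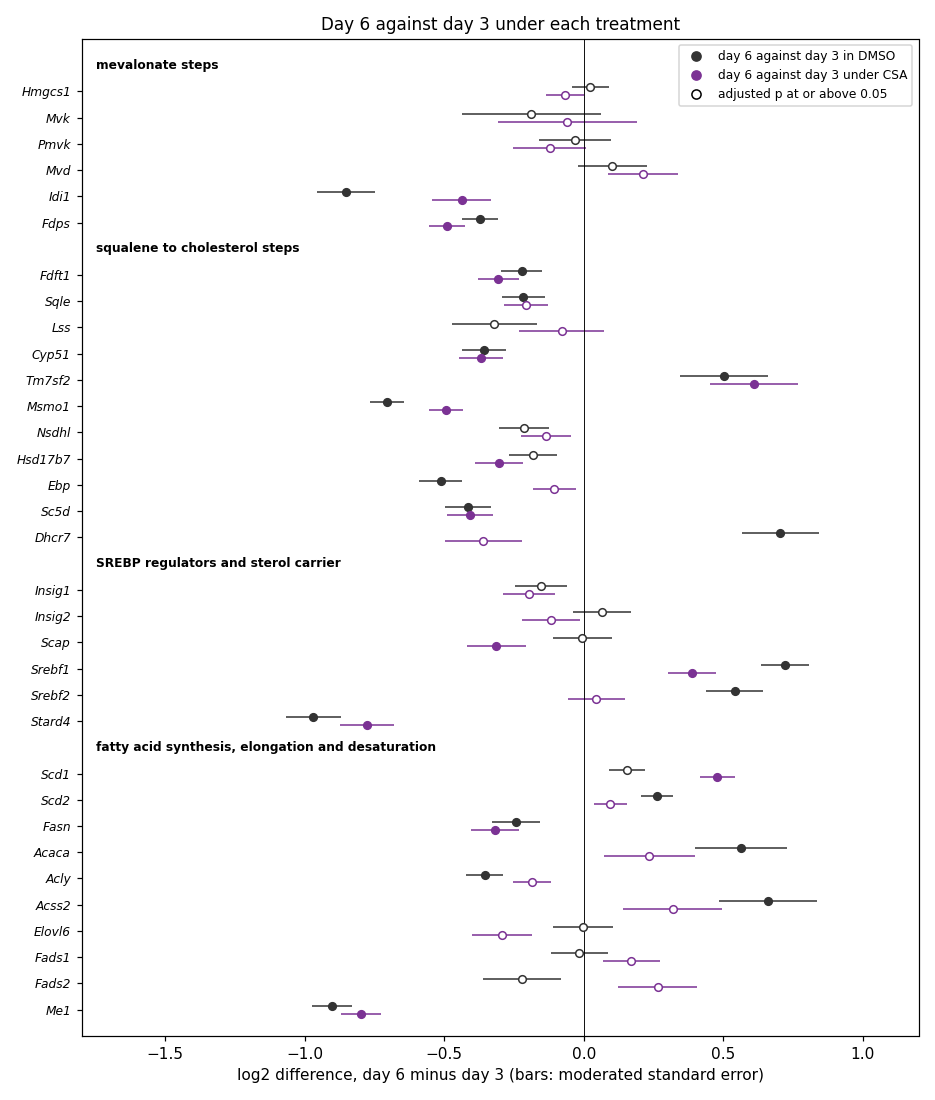
Log2 difference of day 6 minus day 3 for the 33 genes in DMSO (dark grey) and under CSA (purple), with bars of 1 moderated standard error, and filled points for adjusted p under 0.05. Stard4, Me1, Idi1 and Msmo1 lie farthest to the left, between -0.97 and -0.70 in DMSO, and Srebf1 and Dhcr7 farthest to the right in DMSO, at 0.72 and 0.71.

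Genes around these pathways were counted from 5 further lists, to be read beside the shares of all genes called, 12.7% and 12.5% with CSA at days 3 and 6 and 45.7% and 36.1% over the days in DMSO and under CSA. In the list of SREBP processing and sterol-regulated degradation 1 of 9 tested genes rose with CSA at day 3, 1 fell at day 6 and 1 passed for the interaction, and all 3 calls were of Mbtps2, the site-2 protease that releases the SREBP fragment. Mbtps2 read 10.56 and 10.50 in DMSO and 10.94 and 10.95 with CSA at day 3, and 11.33 and 11.30 in DMSO and 11.03 and 11.03 with CSA at day 6. For Mbtps2 CSA lay above DMSO at day 3 and below it at day 6. The differences in Mbtps2 were 0.41 ± 0.08 (adjusted p = 0.00608) and -0.29 ± 0.08 (adjusted p = 0.0340), with an interaction of -0.70 ± 0.11 (adjusted p = 0.00528) that held without any 1 array and ended with no trend (0.118). The day 3 call ended without CSA replicate 2 of day 3 (0.0554), and the day 6 call without CSA replicate 1 or 2 of day 3 (0.0608 for either), DMSO replicate 1 (0.172) or 2 (0.127) of day 6 or CSA replicate 1 (0.0969) or 2 (0.113) of day 6. Over the days in DMSO 4 of the 9 rose, among them Mbtps2 at 0.78 ± 0.08 and the site-1 protease Mbtps1 at 0.67 ± 0.09, and 2 fell, among them the sterol-responsive Tmem97 at -1.13 ± 0.11 (adjusted p = 1.36e-05), and under CSA 2 rose and 2 fell.

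In the list of cholesterol transport, esterification and oxysterol genes 5 of 11 rose and 1 fell over the days under each treatment. Npc1, which exports cholesterol from lysosomes, read 7.92 and 7.99 in DMSO and 8.75 and 8.54 with CSA at day 3, and lay between 9.23 and 9.37 at day 6. Npc1 rose over the days by 1.31 ± 0.14 in DMSO (adjusted p = 2.24e-05) and with CSA at day 3 by 0.69 ± 0.14 (adjusted p = 0.00887, or 0.0841 without CSA replicate 1 of day 3). Ch25h, which makes 25-hydroxycholesterol, an oxysterol that blocks SREBP processing, read 5.20 and 5.40 in DMSO and 6.53 and 6.55 with CSA at day 3, and 7.24 and 7.09 in DMSO and 8.10 and 7.69 with CSA at day 6. Its DMSO values at day 3 lie about the filter on dim probe sets (5.37), which the gene passed through its other groups, so no size or p is given against them. Ch25h is 1 of the 5 rises over the days in DMSO, and that call is not read as a result. The exporter Abca1 rose by 0.55 ± 0.08 (adjusted p = 0.000321), and Npc2, the soluble lysosomal carrier, fell by 0.30 ± 0.06 (adjusted p = 0.00236). With CSA at day 3 the list had 2 calls, both higher, of Npc1 and Ch25h. That of Ch25h rests on the same dim DMSO values, was lost on leaving out any 1 array of day 3 and is not read as a result.

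Of 19 tested genes of further fatty acid synthesis and activation 3 rose and 7 fell over the days under each treatment, and CSA raised 2 at day 3 and 4 at day 6, of which 1 at each day, Elovl7 and Fads3, held without any 1 array. Elovl1 at day 3 was lost without DMSO replicate 2 (adjusted p = 0.0810), CSA replicate 1 (0.0940) or CSA replicate 2 (0.111) of day 3. Hacd1 at day 6 was lost without DMSO replicate 2 (0.112) or CSA replicate 1 (0.0741) of day 6. Hsd17b12 was lost without CSA replicates 1 (0.0521) or 2 (0.0520) of day 3, DMSO replicates 1 (0.123) or 2 (0.125) of day 6 or CSA replicate 2 of day 6 (0.135). Hacd3 was lost without any 1 array of CSA at day 3 (0.0565 and 0.0566), DMSO at day 6 (0.179 and 0.0878) or CSA at day 6 (0.0591 and 0.151). The falls in DMSO included 4 enzymes of the very-long-chain elongation cycle, Hacd1 at -1.15 ± 0.08 (adjusted p = 1.47e-06), Hsd17b12 at -0.67 ± 0.06, Hacd2 at -0.62 ± 0.08 and Hacd3 at -0.54 ± 0.08. Elovl7, an elongase, rose with CSA at day 3 by 0.95 ± 0.11 (adjusted p = 0.000451), and Fads3, a desaturase, at day 6 by 1.65 ± 0.14 (adjusted p = 4.27e-05), from 8.42 and 8.54 to 9.96 and 10.30. Both interactions passed, at -0.89 ± 0.16 for Elovl7 (adjusted p = 0.0113, or 0.0647 without CSA replicate 1 of day 3) and 1.19 ± 0.19 for Fads3 (adjusted p = 0.00712), and both ended with no trend (0.142 and 0.111). In the list of non-sterol branches of the mevalonate pathway 1 of 8 genes fell with CSA at day 6, and over the days in DMSO Coq2, an enzyme of ubiquinone synthesis, rose by 0.25 ± 0.09 (adjusted p = 0.0443) and Fnta, a subunit of the prenyltransferases, fell by 0.19 ± 0.06 (adjusted p = 0.0278). Fnta was at 0.024 under quantile normalization and was lost without any 1 DMSO array (0.0600 and 0.0883 at day 3, 0.0540 and 0.168 at day 6). Coq2 was lost without DMSO replicate 1 (0.180) or 2 (0.0539) or CSA replicate 1 (0.0646) or 2 (0.0647) of day 3 or DMSO replicate 2 of day 6 (0.267). The fall with CSA at day 6 was of Trit1, a tRNA isopentenyltransferase, at -0.57 ± 0.12 (adjusted p = 0.0115), lost without DMSO replicate 1 (0.0744), DMSO replicate 2 (0.0676) or CSA replicate 1 (0.0577) of day 6. Of 9 fatty acid oxidation genes 4 rose and 1 fell over the days under each treatment, and CSA lowered 1 at each day. These were Hadhb at day 3, at -0.45 ± 0.09 (adjusted p = 0.0105), lost without DMSO replicate 2 (0.0713), CSA replicate 1 (0.0900) or CSA replicate 2 (0.0522) of day 3, and Slc25a20, the carnitine-acylcarnitine carrier, at day 6, at -0.38 ± 0.10 (adjusted p = 0.0407). The Slc25a20 call was lost without any 1 array of CSA at day 3 (0.0675 and 0.0674), DMSO at day 6 (0.119 and 0.204) or CSA at day 6 (0.186 and 0.0660). Over the days in DMSO the fall was of Hadhb, a subunit of the mitochondrial trifunctional protein, at -0.70 ± 0.09 (adjusted p = 9.68e-05), and the rises included Cpt2, a carnitine palmitoyltransferase, at 0.82 ± 0.12 (adjusted p = 0.000225). The Cpt2 interaction passed at -0.75 ± 0.17 (adjusted p = 0.0329) and ended with no trend (0.180) and without some single arrays. For the CSA effect averaged over both days 2 of the 9 rose and 4 fell, beside 18.5% of all genes called. Of these, the calls of Cpt1c, Slc25a20, Hadhb and Cpt1a each ended without some single arrays.

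Markers of other cell types moved along with some of these values. Over the adipocyte list, with 7 of 8 genes on the array, the summed signal was 1425 to 1693 in DMSO and 1890 to 2127 with CSA at day 3, and 736 to 760 in DMSO and 1531 to 1558 with CSA at day 6, so it was higher with CSA at both days. The arrays of Scd1, Scd2 and Fads1 were also higher with CSA at both days, but Scd1 and Fads1 passed at day 6 only and Scd2 at day 3 only. Over the days in DMSO the sum went down, while Scd2 rose and Scd1 and Fads1 did not pass. The adipocyte markers Adipoq, Fabp4, Cidec, Lep and Cd36 were below the filter, none at 0. Lpl and Pparg were above it, with median log2 signals of 10.01 and 8.51, and the sum mostly reads these genes. Keratinocyte markers, with 7 of 7 genes, summed to 4594 to 4684 in DMSO and 6723 to 7175 with CSA at day 3 and to 3757 to 3947 and 5321 to 5418 at day 6. The sum of 9 of 10 proliferation genes was 50586 to 50811 in DMSO at day 3 and between 33176 and 36494 in the other 3 groups. All 9 were called lower with CSA at day 3. Over the days in DMSO 7 fell, Mki67 rose by 0.30 and Top2a did not pass. The members differed in their order: Idi1, Fdps and Stard4 were among those highest in DMSO at day 3. Msmo1, Sc5d, Cyp51 and Sqle were among those highest with CSA at day 3, where the proliferation sum was 34221 to 35272. Epithelial markers, 6 of 6, summed to 20487 to 21559 in DMSO and 26202 to 26223 with CSA at day 3 and to 37315 to 39672 and 28604 to 28686 at day 6. The sum mostly reads its brightest genes, Krt8 and Cdh1, which were called higher with CSA at day 3 and lower at day 6. The other markers differed: at days 3 and 6 Krt18 was at -0.48 and 0.39, Epcam at -0.37 and -0.69, Cldn4 at 0.55 and 0.07 and Ocln at 0.68 and -0.07. Among the members the interaction passed for Dhcr7 alone, 3.03% beside 5.79% of all genes tested. Fibroblast markers, 8 of 8, summed to between 20867 and 22643 at day 3, 32359 to 32927 in DMSO at day 6 and 27196 to 27205 with CSA at day 6. Macrophage markers, 6 of 6, summed to 351 to 466 at day 3 and 553 to 676 at day 6. Pluripotency markers, 7 of 7, summed to 796 to 1150 at day 3, 1613 to 1968 in DMSO at day 6 and 987 to 1073 with CSA at day 6. The 3 sebocyte markers with a probe set, of 6 listed, summed to 100 to 274. No marker was at 0 on any array, and the part of these cell types in the results was not tested.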

How the data were processed

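The authors deposited 1 log2 signal for each of 45037 probe sets on 8 Affymetrix 3' arrays, of RNA labelled with the 3' IVT Express kit per the labels' protocols. The submitters' processing notes name MAS5, and no source used here states its scaling target or how low signals were handled. The log2 signals were used as they stood, with a pseudocount of 0, and no sample was dropped. Genes were named from the platform annotation (34945 probe sets with 1 symbol, 932 with several, 9160 with none). Probe sets at or above the 40th percentile of mean signal, 27022 in all, were fitted with limma 3.58.1 in R 4.3.3 as 1 mean per group over all 8 arrays (4 residual degrees of freedom), with an intensity trend, two-sided tests and Benjamini-Hochberg adjustment over all of them. The pipeline was tested on simulated data. Shares of all genes called use 1 representative probe set for each of 12529 genes.

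The members and lists were chosen with earlier results of these data known. The genes named are all members, and up to 4 of each further list with the smallest p. Alternatives were quantile normalization, pseudocounts of 8 and 32, a floor at 5, no filter or one at the 60th percentile, no trend, only the arrays compared, averaging the probe sets of each gene, no probe sets that can read several sequences, a replicate block and leaving out each array. Replicate numbers were not used to pair the arrays in the main fit. With 2 arrays a group, their number limits the precision. Comparisons of CSA at each day and between days share arrays. Promoter sequences are from RefSeq, GRCm38.p6. Some genes of these pathways are not analysed here.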

Additional observations from a re-analysis of the deposited data

Results flagged for a closer look

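The effect of CSA on Dhcr7 differed between the days by the interaction test, at -1.07 ± 0.19 on the log2 scale (limma, adjusted p = 0.0130): CSA was above DMSO at day 3 in both arrays and below it at day 6 in both arrays. The call ended without CSA replicate 2 of day 3 (adjusted p = 0.0666) and without DMSO replicate 2 of day 6 (0.0564). With groups of 2 arrays no single array could be tested as an outlier.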

How the results depend on the processing

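Of 58 calls of members over the 6 comparisons, 0 were lost with a pseudocount of 8 or 32, a floor at 5 or the 60th percentile filter, 4 without the filter, 12 under quantile normalization, 22 when the probe sets of each gene were averaged and 36 with no trend. Without the trend 0 members passed at day 3, 0 at day 6 and 0 for the interaction (unadjusted p under 0.05 for 9, 9 and 4). There were 2 for both days together and 7 over the days under CSA. Of all 12529 genes 2.19%, 3.38%, 0%, 6.74% and 23.5% passed in the same order of comparisons, so the calls became fewer over the whole table. With averaged probe sets 5 passed at day 3, 3 at day 6, 3 for the interaction and 8 over the days under CSA. Of all genes so averaged 10.4%, 10.6%, 4.94% and 29.5% passed in these comparisons. Quantile normalization gave 8 at day 6, the 60th percentile filter 2 for the interaction, and leaving out probe sets that can read several sequences 7 for both days together.

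Leaving out 1 array at a time gave 1 to 9 members at day 3, 1 to 6 at day 6, 0 to 3 for the interaction, 7 to 11 for both days together, 14 to 19 over the days in DMSO and 8 to 15 under CSA. Over the days in DMSO 12 of the 19 calls held both without each array and without the trend. Differences that turned sign were, with averaged probe sets, those of Fdps (0.55) and Fdft1 (0.23) over the days under CSA and of Msmo1 for both days together (-0.079). The averages include probe sets below the filter. Without probe sets that can read several sequences Msmo1 for both days was at -0.33 and Fdft1 over the days in DMSO at 0.016. Under quantile normalization Fnta over the days was at 0.024 in DMSO and 0.0029 under CSA. The cause was not tested. With the replicate number as a block 2 members passed for the interaction, and no call of a member was lost. The differences between replicates 1 and 2 correlated at -0.00 to 0.03 between groups, so no large effect shared by same-numbered arrays was seen. Whether same-numbered arrays came from the same line or experiment cannot be told from this. Depth does not apply to arrays, and no signal of a member was near the floor.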
